A study of Gallus gallus with 4 samples.

Results

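At embryonic day 12 (E12) of the chicken, tissue from the tibia that included the future articular cartilage was set against cartilage of the same bone that is later replaced by bone. The comparison rests on 2 of the 4 arrays of the series, 1 for each tissue at that stage, taken by their labels. Transient cartilage (TC), labelled as purely transient cartilage of the tibial epiphysis, served the study as its reference. The other tissue (TC+AC) was articular cartilage dissected together with some of the transient cartilage, so it shares a cell population with the reference. Both came from white leghorn embryos at Hamburger-Hamilton stage 38, many dissected pieces were pooled for each RNA, and 5 µg of total RNA went onto each array. The remaining pair of arrays holds the same 2 tissues from embryonic day 14 (E14), stage 40, and its values stand beside those of E12 as another stage, not as a replicate. With 1 array a tissue there is no spread between samples, no difference below has a replicate check, and no p-value is given. In pooled tissue, fewer cells of a type and less RNA per cell cannot be told apart.

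Most of the limb skeleton is laid down as cartilage that is transient. Its chondrocytes stop dividing, enlarge (hypertrophy), make collagen X and mineralize their matrix, and are then replaced by bone made by osteoblasts, while the growing shaft already carries a bone collar beneath its fibrous sheath. The cells at the ends of the element take another course: they pass through the joint interzone, a flattened layer marked by GDF5 and WNT ligands, and persist as articular cartilage. Bone morphogenetic proteins (BMPs), WNT proteins and hedgehog proteins act on the choice between these courses, and secreted antagonists limit each of them.

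The deposited values are linear intensities, 1 for each probe set and array. A probe set is the group of short probes that reports 1 transcript, and its level cannot be set against that of another probe set. Deposited medians were 20.6 in TC and 22.7 in TC+AC at E12, and 23.1 and 13.1 at E14. After quantile normalization of the 4 arrays, 7805 genes with the brighter signals were kept, and a gene was read on its brightest probe set. Background was set so that 95% of 541 virus-genome probe sets lay below it, at an intensity of 18.9 in TC and 19.1 in TC+AC at E12, and 99.5% of the kept genes lay above it on each of these arrays. Control probe sets at the 3' and 5' ends of beta-actin differed by 3.26-fold in TC and 4.01-fold in TC+AC at E12, against 1.99-fold and 7.48-fold at E14. For GAPDH these ratios were 1.55 and 1.18 at E12 and 1.52 and 1.59 at E14. For the control EF1A they were 1.64 in TC and 1.54 in TC+AC at E12, and 1.45 and 3.97 at E14. The TC+AC E14 array thus stood apart in the ratios of beta-actin and EF1A, measures of RNA integrity, but not in that of GAPDH.

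The cartilage label was checked against its markers. COL2A1, the main collagen of cartilage, had an intensity of 3182 in TC and 2916 in TC+AC at E12. ACAN, which encodes the proteoglycan aggrecan, had 340.0 and 230, and SOX9, the transcription factor that cartilage cells depend on, had 86.7 and 105. All were above background in both tissues on their brightest probe set, so both hold cartilage. The other ACAN probe set was at 39.4 in TC and not above background in TC+AC at E12. The TC tissue also gave clear signals for osteoblast genes, of which IFITM5 is restricted to bone in mammals: IFITM5 was at 2789 in TC and 105 in TC+AC. Osteoblast genes thus gave signal in the tissue labelled purely transient, and every value lower in TC+AC is a value against this tissue.

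At E12, 604 of the 7805 genes (7.74%) were at least 2-fold apart. Of these, 348 (4.46%) were higher in TC+AC and 256 (3.28%) lower. With background in place of dim values, 346 and 248 of these remained at least 2-fold apart. The median difference over all kept genes was -0.0019 on the log2 scale, always given as TC+AC minus TC. As deposited, with no normalization, that median was 0.20, and the higher calls made up 78.4% of the calls in place of 57.6%. The largest differences leaned the other way: 38 genes (0.487%) were at least 4-fold higher and 49 (0.628%) at least 4-fold lower, and 4 genes (0.0512%) were at least 8-fold higher against 22 (0.282%) at least 8-fold lower. In the plot of difference against level these 22 hang below the cloud of other genes. The 4-fold and 8-fold counts use floored values. With background in place of dim values, FABP3 (17.0-fold) and SCARA5 (9.84-fold) were the highest, followed by FAM180A at 7.88-fold. On that measure the 15 lowest genes were each at least 9.22-fold lower. The genes were split by level into 4 equal bins. The SD of the difference, which takes in such extreme genes, was 0.65 in the dimmest bin, then 0.59, 0.57 and 0.62 in the brightest. The share of genes at least 2-fold apart was 9.84% in the dimmest bin and 6.61% in the brightest.

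**Figure D1:**
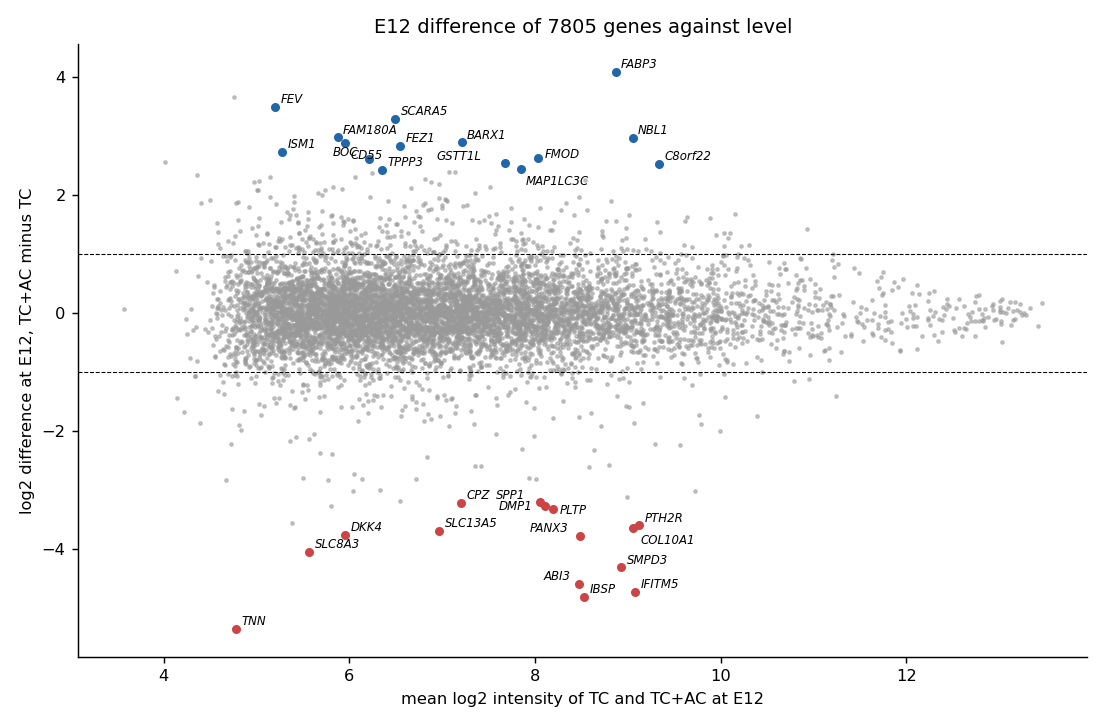
Each grey point is 1 of the 7805 kept genes, with its mean log2 intensity in TC and TC+AC at E12 on the horizontal axis and its log2 difference, TC+AC minus TC, on the vertical axis; dashed lines mark 2-fold, and dim values stand at their floored level. The 15 highest genes (blue) and 15 lowest (red), ranked with background in place of a dim value, are named, and more of the red genes lie beyond a log2 difference of 3.

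Genes of the bone matrix and of osteoblasts were the lowest group. Of its 13 entries 10 were found on the array and 9 kept. All 9 were at least 2-fold lower in TC+AC, beside 3.28% of all kept genes, with a median log2 difference of -3.22. A gene bright in 1 tissue alone can pass the filter on brightness through that tissue. The lists were also chosen with earlier results of these data known. Shares of kept members here and below are thus descriptions, not tests. IBSP, the bone sialoprotein gene, had an intensity of 1963 in TC and 69.4 in TC+AC at E12, and 288 and 47.9 at E14. It was thus 28.3-fold lower in TC+AC at E12 and 6.01-fold lower at E14. IFITM5, at 2789 against 105, was 26.5-fold lower, and at E14 its intensities were 558 and 64.7. DMP1, a matrix phosphoprotein of osteocytes, was at 862 in TC and 88.9 in TC+AC at E12, a 9.69-fold difference. At E14 DMP1 stood at 76.6 and 58.2, so the TC value there lay below both E12 values and the tissues were 1.32-fold apart.

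SPP1, which encodes osteopontin, had 808 in TC and 87.0 in TC+AC at E12 (9.29-fold lower) and 351 and 32.9 at E14 (10.7-fold lower). TNN encodes tenascin-W, a matrix protein of the periosteum and of bone-forming regions. It was at 176 in TC and not above background in TC+AC at E12, so the tissues were at least 9.22-fold apart. BGLAP, the osteocalcin gene, was at 282 in TC and 89.2 in TC+AC at E12 but at 48.7 and 113 at E14, where the order was turned. The list is completed by CLEC3A, PHEX and SPARC, named after their values were seen, with log2 differences of -3.01, -1.60 and -1.42 at E12. CLEC3A is known as a lectin of cartilage, not of bone. At E14 the same 9 genes had a median of -2.59, with 5 at least 2-fold lower and 1, BGLAP, at least 2-fold higher. Of all kept genes, 15.6% were at least 2-fold lower at E14 and 20.3% higher.

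Many hypertrophic and prehypertrophic cartilage genes were also lower. Of 11 kept members, 7 were at least 2-fold lower in TC+AC, beside 3.28% of all kept genes, none of the 11 at least 2-fold higher, and the median log2 difference was -1.61. COL10A1, the collagen X gene, was at 1895 in TC and 151 in TC+AC at E12, and at 3876 and 318 at E14. Both TC values are high and both TC+AC values low, and the fold was 12.6 at E12 and 12.2 at E14. PANX3, a channel protein of prehypertrophic chondrocytes and osteoblasts, had the same order, with 1330 and 96.6 at E12 and 968 and 79.6 at E14. The parathyroid hormone receptor gene that the annotation calls PTH2R, with PTH1R as a synonym, was at 1947 and 160.3 at E12, a 12.1-fold difference. DLX5, a homeobox gene of maturing chondrocytes and osteoblasts, was at 947 and 155 at E12 (6.09-fold lower) and at 471 and 269 at E14 (1.75-fold lower). IHH, the hedgehog ligand of prehypertrophic cells, was not above background on any of the 4 arrays.

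Enzymes and transporters of mineralization split. Of 10 kept genes, 4 were at least 2-fold lower in TC+AC and 1 higher, by a log2 difference of 1.03, with a median of -0.39. Among all kept genes, 3.28% were at least 2-fold lower and 4.46% higher. SMPD3, a neutral sphingomyelinase gene whose loss disturbs mineralization in mice, was at 2178 in TC and 109 in TC+AC at E12, and at 4472 and 79.0 at E14. SLC13A5, which encodes a citrate transporter, was at 453 and 34.8 at E12 and 949 and 24.8 at E14. For both genes the TC value was higher at E14 than at E12 and the TC+AC value lower. PHOSPHO1, a phosphatase that starts mineral formation in matrix vesicles, was at 685 and 96.9 at E12, a 7.07-fold difference, and at 267 and 135 at E14. SLC20A2, a phosphate transporter gene, was at 172 and 70.6 at E12.

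The matrix genes of cartilage in general differed less. Of 18 kept members, MATN1 and EPYC were at least 2-fold lower in TC+AC, beside 3.28% of all kept genes. None of the 18 was at least 2-fold higher, and the median was -0.34. COL9A2 passed 2-fold only when its TC+AC value, below background, was taken as it stands. MATN1, a matrilin of the non-articular cartilage matrix, was at 1697 in TC and 460.3 in TC+AC at E12, but its other probe set differed by 0.12. EPYC, a small leucine-rich proteoglycan of growth plate cartilage, was at 900.2 and 298, a 3.02-fold difference. COL9A2 was at 37.5 in TC and not above background in TC+AC, which bounds the fold at 1.96. At E14 the same 18 genes had a median of -1.12 and 11 were at least 2-fold lower, among them ACAN, at 5234 in TC and 641 in TC+AC. The other ACAN probe set was at 34.35 in TC and not above background in TC+AC at E14. At E12 its log2 difference was bounded at -1.05, while the brightest ACAN probe set gave -0.56. Of all kept genes, 15.6% were at least 2-fold lower at E14.

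**Figure D2:**
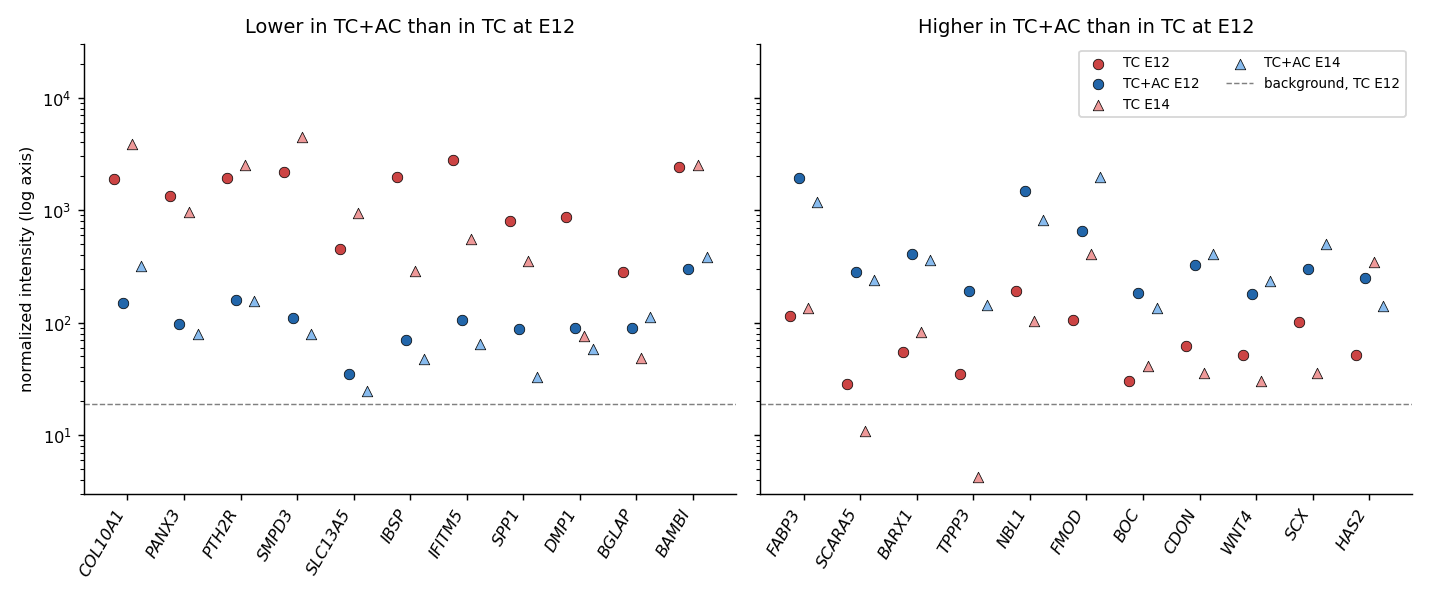
Normalized intensity (log axis) on each of the 4 arrays for 11 genes lower and 11 genes higher in TC+AC at E12, with circles for E12, triangles for E14, red for TC and blue for TC+AC; the dashed line is background on the TC E12 array. The red and blue circles stand apart for each gene, and the triangles keep that order except for BGLAP and HAS2.

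Among genes known from the joint interzone and articular cartilage, 8 of 20 kept members were at least 2-fold higher in TC+AC, beside 4.46% of all kept genes. Another 11 were within 2-fold and 1 was at least 2-fold lower, and the median log2 difference was 0.78. Since this list too was chosen with earlier results of these data known, its share is no test. FABP3, whose product binds fatty acids, was at 113 in TC and 1932 in TC+AC at E12, and at 136 and 1188 at E14. Its 17.0-fold difference was the highest of all kept genes. SCARA5, a scavenger receptor gene, was at 28.7 in TC and 283 in TC+AC at E12, a 9.84-fold difference. BARX1, a homeobox gene expressed in the joint region of the chick limb, was at 54.3 and 404 at E12 (7.45-fold higher) and at 83.0 and 362 at E14 (4.36-fold higher). TPPP3, a tubulin-binding protein gene that marks tendon sheath and early synovial joint cells in mice, was at 35.2 and 190.0 at E12, a 5.40-fold difference. All 4 of these kept their order at E14, where SCARA5 and TPPP3 were not above background in TC.

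The interzone markers fixed for every comparison differed little. GDF5, the BMP-family ligand that marks the interzone, was at 232 in TC and 357 in TC+AC at E12 and at 437 and 432 at E14. Its 2 probe sets gave log2 differences of 0.62 and 0.40 at E12. ERG, a transcription factor of articular chondrocytes, was at 78.0 in TC and 90 in TC+AC, and its other probe set differed by -0.20. For both genes the tissues were within 2-fold at E12. As given further on, 10% of genes exceeded a gap of 1.39, on floored values, between their own probe sets. That gap is also larger than the differences of genes here that only just pass 2-fold.

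Transcription factors of the joint side and of limb patterning had 6 of 16 kept members at least 2-fold higher in TC+AC, beside 4.46% of all kept genes, and none of the 16 at least 2-fold lower, with a median of 0.54. NFIX and NFIA encode factors of the nuclear factor I family. NFIX was at 459 in TC and 1352 in TC+AC at E12 and at 140 and 1224 at E14. NFIA was at 146 and 409 at E12, with 2 probe sets in accord at 1.49 and 1.52, yet at 255 and 172 at E14. HOXA11, a homeobox gene of the middle limb segment, was at 126 and 367 at E12, and a probe set beside its brightest gave 1.06. The mean of all 5 HOXA11 probe sets, 3 of them not above background in either tissue, differed by -0.0020. NKX3-2, which holds chondrocytes back from hypertrophy, was at 405 in TC and 1044 in TC+AC at E12 and at 666 and 1659 at E14. Of 8 kept chondrocyte transcription factors it alone passed 2-fold at E12, a share of 12.5% beside 7.74% of all kept genes.

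BMP antagonists held large differences in both directions. Of 9 kept members, 3 were at least 2-fold higher in TC+AC and 1 lower, beside 4.46% and 3.28% of all kept genes. NBL1, a secreted BMP antagonist of the DAN family, was at 189 in TC and 1486 in TC+AC at E12 and at 103 and 814 at E14. Its 2 probe sets gave 2.97 and 3.11 at E12, so both gave nearly the same fold. BAMBI, a membrane-bound pseudoreceptor that blocks BMP signalling and is itself a target of it, went the other way. It was at 2414 and 297 at E12 (8.13-fold lower in TC+AC) and at 2541 and 381 at E14 (6.68-fold lower). CHRDL1, a chordin-like antagonist, was not above background in TC and at 43.8 in TC+AC at E12, at least 2.32-fold higher. SOSTDC1, an antagonist of BMP and WNT, was 2.02-fold higher, at 37.0 and 74.6.

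The list of BMP ligands, receptors and target genes had 18 kept members, with a median of -0.03. At least 2-fold lower in TC+AC were 3 of them and higher 1, beside 3.28% and 4.46% of all kept genes. The 3 lower ones were all ligands. BMP6, made by hypertrophic chondrocytes, was at 74.3 in TC and 24.3 in TC+AC at E12. BMP2 was at 338 and 133, although its other probe set above background differed by -0.17. BMP7 was at 69.5 and 29.6. The higher 1 was ID3, an inhibitor of differentiation that BMP signalling induces, at 306 in TC and 832 in TC+AC at E12 and at 214 and 509 at E14.

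WNT ligands and receptors differed in both directions: 6 of 17 kept were at least 2-fold higher in TC+AC and 3 at least 2-fold lower, with a median of 0.18, where 7.74% of all kept genes were 2-fold apart either way. WNT5A, a non-canonical ligand of the perichondrium and of prehypertrophic cartilage, was at 894 in TC and 178 in TC+AC at E12 and at 283 and 113 at E14. Its 3 probe sets above background in both tissues were lower, from -1.84 to -2.76, and the remaining one, not above background in TC+AC, was lower by at least 0.85. WNT4, a ligand of the joint interzone, had the opposite order, with 51.3 and 180.1 at E12 and 30.0 and 233 at E14. ROR1, which encodes a receptor for WNT5A, was at 63.5 and 245 at E12, a 3.85-fold difference. LRP4, a receptor that binds sclerostin, was at 83.6 and 31.2.

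Inhibitors and feedback targets of WNT signalling were mostly close. Of 12 kept, 2 were at least 2-fold lower, beside 3.28% of all kept genes, and none of the 12 at least 2-fold higher. DKK4, a secreted inhibitor of canonical WNT signalling, was at 230 in TC and not above background in TC+AC at E12, at least 12.02-fold lower. AXIN2, a feedback inhibitor widely used as a readout of canonical WNT signalling, was at 117 in TC and 54.3 in TC+AC at E12. Its 2 probe sets gave -1.11 and -1.48 at E12. At E14 the order was turned on the brightest probe set, at 21.4 and 90.9, while the other was not above background in either tissue.

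The hedgehog and PTHrP list had 9 kept members, with a median of -0.09. At least 2-fold higher in TC+AC were 2 of them and lower 3, beside 4.46% and 3.28% of all kept genes. PTCH1, the hedgehog receptor and itself a target gene, was at 655 in TC and 193 in TC+AC at E12 and at 468 and 217 at E14, 3.40-fold and 2.15-fold lower. BOC and CDON encode co-receptors that bind hedgehog proteins. BOC was at 30.0 in TC and 183 in TC+AC at E12 and at 40.8 and 134 at E14. CDON was at 61.4 and 323 at E12 and at 35.7 and 408 at E14, and 3 further CDON probe sets, not above background in TC, were higher by at least 2.29, 1.68 and 0.30. Lower beside PTCH1 and PTH2R was HHIP, which encodes a membrane protein that binds hedgehog and is named after its values were seen, with log2 differences of -1.70 and -1.01 on its 2 brightest probe sets.

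In other signalling lists the shares of kept genes at least 2-fold apart were 18.2% for FGF, 16.7% for Notch and retinoic acid and 9.09% for TGF-beta, beside 7.74% of all kept genes. Of 11 kept FGF receptors and targets, ETV4, an ETS factor induced by FGF signalling, was at 53.6 in TC and 153 in TC+AC at E12, and FGF2 was at 30.9 and 65.4. No member of this list was at least 2-fold lower. Of 11 kept TGF-beta genes, 1 differed: INHBA, which encodes an activin subunit, was at 25.9 and 110 at E12, a log2 difference of 2.09, with another probe set higher by at least 1.62, and at 63.2 and 68.7 at E14. In the list of Notch and retinoic acid genes, 2 of 12 kept were at least 2-fold higher in TC+AC. ALDH1A3, which makes retinoic acid, was at 93.0 and 277, and CYP26B1, which degrades it, was at 50.4 and 101.

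In the tendon and ligament list, 6 of 15 kept members were at least 2-fold higher in TC+AC, beside 4.46% of all kept genes, 8 were within 2-fold and 1 was at least 2-fold lower, with a median of 0.80. SCX, the transcription factor of tendon progenitors, was at 101 in TC and 301 in TC+AC at E12 and at 35.5 and 497 at E14. TNMD, a membrane protein of mature tendon, was at 686 and 1756 at E12 and at 259 and 1317 at E14. The tendon factor MKX was at 61.9 and 158 at E12 on its brightest probe set, while another lay close to background in both tissues. Tendon-associated genes thus had signal in the tissue labelled purely transient as well. Of 6 kept small leucine-rich proteoglycans, 2 were at least 2-fold higher in TC+AC and 1, EPYC, at least 2-fold lower, beside 4.46% and 3.28% of all kept genes. The higher ones were FMOD and OGN, which bind collagen fibrils, by 6.21-fold and 3.82-fold. FMOD was at 105 in TC and 652 in TC+AC at E12, and OGN at 66.8 and 255. Of 11 kept collagens of fibrous tissue, COL14A1, a fibril-associated collagen, alone passed 2-fold, a share of 9.09% beside 7.74% of all kept genes. COL14A1 was at 1193 in TC and 3200 in TC+AC, and all 5 of its probe sets above background were higher, from 1.21 to 2.73.

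Further matrix genes with large differences were few. HAS2, which encodes a hyaluronan synthase, was at 51.4 in TC and 248 in TC+AC at E12, but at 345 and 139 at E14. TIMP3, an inhibitor of metalloproteases, was at 260 and 683 at E12 and at 773 and 501 at E14, again in the opposite order. Of 17 kept proteases and inhibitors TIMP3 alone passed 2-fold, a share of 5.88% beside 7.74% of all kept genes. Genes of the endoplasmic reticulum and of collagen processing had a median of -0.40 over 19 kept members. Of these, 2 were at least 2-fold lower, beside 3.28% of all kept genes. PCOLCE2, an enhancer of procollagen cleavage, was at 119 in TC and not above background in TC+AC, at least 6.25-fold lower. P4HA2, a prolyl hydroxylase subunit, was at 667 and 290.1, and its 2 probe sets gave -1.20 and -1.75.

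Cell adhesion genes included CDH2, the N-cadherin gene, at 519 in TC and 104 in TC+AC at E12 and at 278 and 63.1 at E14. Its 2 probe sets gave -2.32 and -2.88. Another cadherin gene, CDH13, was 3.13-fold higher on its brightest probe set, with another at -0.06. The integrin genes ITGB5 and ITGA2 were 2.14-fold and 2.11-fold higher. Of 18 kept genes of glycolysis and hypoxia, 2 were at least 2-fold higher, beside 4.46% of all kept genes. They were CA9, a carbonic anhydrase induced by hypoxia, at 58.6 and 209, and ADM, the adrenomedullin gene, at 55.5 and 118. The cell cycle list had 2 of 26 kept genes at least 2-fold higher, CCNB3 (172 and 503) and MCM5 (222 and 573). That is a share of 7.69% beside 4.46% of all kept genes. None of the 26 was at least 2-fold lower, and 7.74% of all kept genes were 2-fold apart either way. Among 10 kept immediate early and heat shock genes, HSPB1 was at 143 and 491 and DUSP1 at 70.4 and 156, and the median was -0.10.

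Markers of other cell types were mostly within 2-fold at E12. Median log2 differences were -0.52 for skeletal muscle, -0.61 for nerve, -0.29 for endothelium, 0.14 for red cells and 0.07 for leukocytes. In the skeletal muscle list 11 genes were kept, none of them 2-fold apart, with a summed intensity of 4859 in TC and 3689 in TC+AC. The 17 kept endothelial genes summed to 1724.5 and 1609, and none was 2-fold apart. Red cell genes (10 kept) summed to 18988 and 20074 and leukocyte genes (11 kept) to 1465 and 1568, again with none 2-fold apart. Of 3 kept nerve genes, NCAM1 was 2.48-fold lower on its brightest probe set, and its other probe set above background in both tissues gave -1.03. A further NCAM1 probe set, not above background in TC, was higher in TC+AC by at least 0.45. Among defining markers, PTPRC of leukocytes was at 23.4 and 19.2, close to background, and MYOG of muscle was not above it in either tissue. By contrast the osteoblast, tendon and hypertrophic lists moved with the tissue, and the part of such cells in the other differences was not tested.

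**Figure D3:**
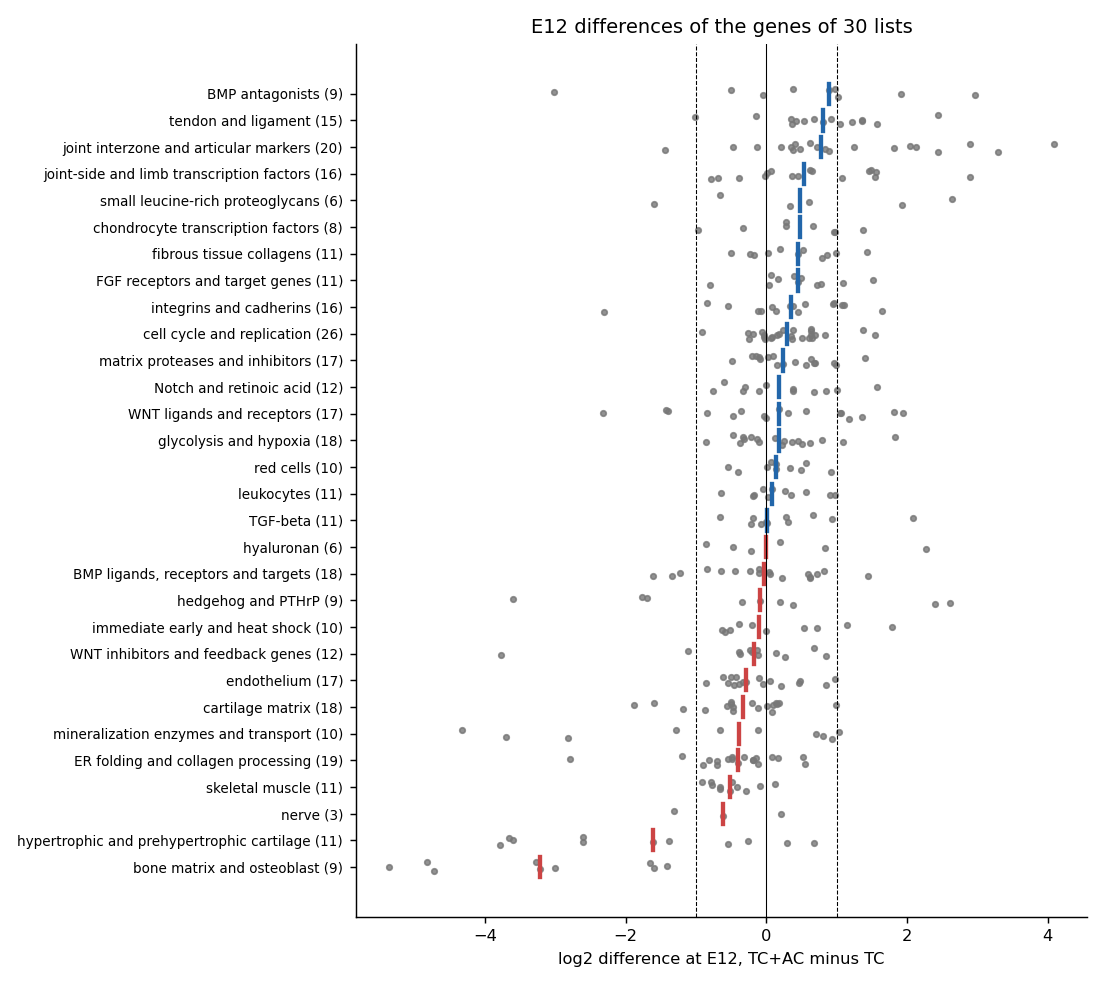
Each row is 1 of the 30 gene lists, with the number of its kept genes in brackets, and each grey point is the E12 log2 difference, TC+AC minus TC, of 1 gene; the thick bar is the list's median and dashed lines mark 2-fold. Bone matrix genes (median -3.22) and hypertrophic cartilage genes (-1.61) lie to the left, and joint markers (0.78) and tendon genes (0.80) to the right, while muscle, endothelial, red cell and leukocyte genes stay inside the dashed lines.

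The 15 highest genes ranged from 5.29-fold to 17.0-fold and the 15 lowest from 9.22-fold to 28.3-fold. Several of the highest were in none of the lists. CD55, which encodes a complement regulator of the cell surface that also marks synovial lining cells in humans, was at 22.9 in TC and 169 in TC+AC at E12, and at E14 it was not above background in TC and at 110 in TC+AC. C8orf22 was at 270.0 and 1557 at E12. GSTT1L, a glutathione transferase gene, was at 84.7 and 493, with 2 probe sets at 2.54 and 1.99. MAP1LC3C, of the autophagy LC3 family, was at 98.6 and 537. FEZ1, a kinesin adaptor gene, was at 35.1 and 251, and ISM1, which encodes the secreted protein isthmin, was at least 5.29-fold higher. FEV, an ETS factor gene, was not above background in TC and at 124 in TC+AC, at least 6.58-fold higher, but its other probe set differed by -0.39. FAM180A, which encodes a predicted secreted protein, was at 20.9 and 165, a log2 difference of 2.98, while another probe set above background in both tissues differed by -0.12.

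Among the lowest genes outside the lists, ABI3, an adaptor protein gene, was at 1756 in TC and 72.6 in TC+AC at E12 and at 462 and 46.3 at E14. Its 2 probe sets above background gave -4.60 and -2.98 at E12, but the second of them differed by only -0.08 at E14. PLTP, the phospholipid transfer protein gene, was at 926 and 92.1 at E12, and CPZ, which encodes a carboxypeptidase that binds WNT, was at 451 and 48.5. The probe sets of PLTP gave -3.33 and -3.21 and those of CPZ -3.22 and -3.72, so each gene was over 8-fold lower on both. At E14, by contrast, PLTP was 3.82-fold lower and CPZ 1.65-fold lower. SLC8A3, a sodium-calcium exchanger gene, was at 193 in TC and, by the probe set that stands for it, not above background in TC+AC, at least 10.1-fold lower, but its others gave -1.48 and 0.40.

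**Figure D4:**
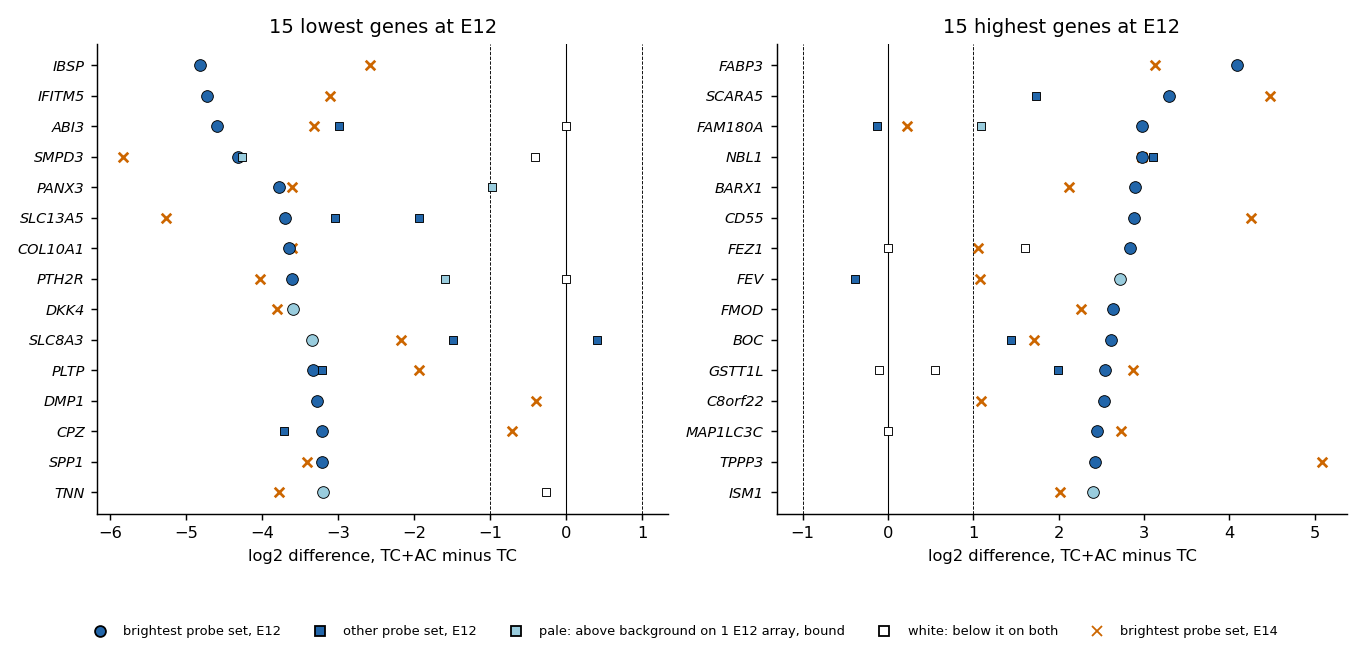
E12 log2 differences, TC+AC minus TC, of each probe set of the 15 lowest and 15 highest genes, with a circle for the brightest probe set, squares for others and a cross for the brightest probe set at E14 (floored, not bounded); pale symbols were above background on 1 E12 array and stand at their bound, and white ones were above it on neither. NBL1 and PLTP have close pairs, while FEV, FAM180A and SLC8A3 have a filled square on the far side of 0.

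Agreement between probe sets of a gene was measured over the 4361 genes with at least 2 probe sets above background in TC or TC+AC at E12. These genes had 10840 such probe sets. In 2365 genes (54.2%) all of them differed in the same direction. Between the 2 brightest probe sets the median gap in log2 difference was 0.39, or 1.31-fold, and the 90th percentile was 1.39. In 746 genes (17.1%) the gap was over 2-fold. These gaps, and the counts of second probe sets below, use floored values, also where 1 side was not above background. The size of such a gap depends on the floor. The second CYP26B1 probe set, for example, differed by 2.36 with the floor. With background in place of its dim value it differed by at least 0.22. Across genes, which are not independent replicates, the differences of the 2 probe sets correlated at Pearson's r = 0.34 and Spearman's rho = 0.35. Probe sets of a gene share both arrays and both RNAs, so this agreement describes the measurement and not the spread between dissections.

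Level mattered for that gap. The genes were split into 4 equal bins by the level of the second probe set. In the dimmest bin the median gap was 0.86 and r was 0.22. The values were 0.44 and 0.28 in the next bin, 0.34 and 0.49 in the third, and 0.23 and 0.75 in the brightest. The share of genes with a gap over 2-fold ran from 43.3% to 2.48%. In the dimmest bin the level of the second probe set ran from 9.05 to 22.9, around background. Gaps in that bin thus rest in part on the floor. Where both probe sets were above background on both E12 arrays (3239 genes), r was 0.51 and the median gap 0.30. The next counts are again over the 4361 genes with at least 2 probe sets above background in TC or TC+AC. Among 180 of them whose brightest was at least 2-fold higher in TC+AC, the second was at least 2-fold higher in 61 (33.9%). It was at least 2-fold lower in 11. Over all 4361 genes, 8.39% of second probe sets were at least 2-fold higher. Among 168 genes whose brightest was at least 2-fold lower, the second was so in 63 (37.5%) and at least 2-fold higher in 9, beside 7.93% at least 2-fold lower over all.

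**Figure D5:**
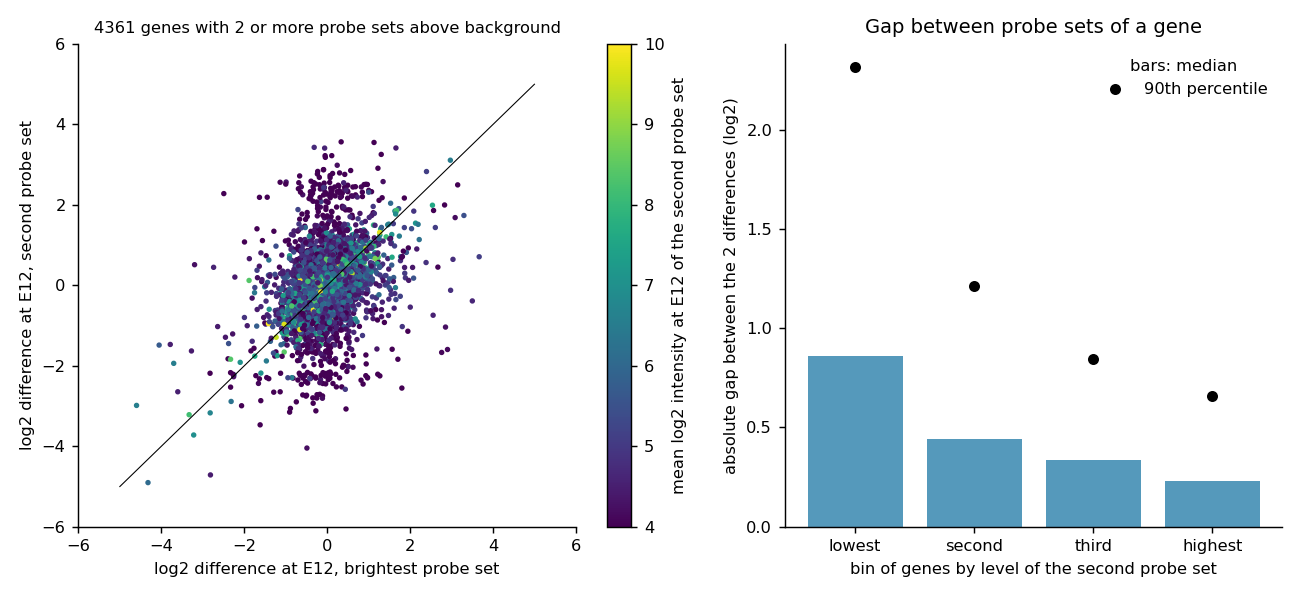
Left, E12 log2 difference of the second brightest probe set against that of the brightest for 4361 genes, coloured by the level of the second, with the line of equality. Right, the gap between the 2 differences by bin of level, with bars for the median (0.86 in the dimmest bin and 0.23 in the brightest) and points for the 90th percentile (2.32 and 0.66). Both panels use floored values, so gaps of dim probe sets rest in part on the floor.

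Genes with many probe sets show both outcomes. TPM1, a tropomyosin gene, had 8 probe sets, all above background, and all were lower in TC+AC, from -0.66 to -1.46. ATRX, a chromatin remodeller gene, had 6 above background on both E12 arrays, between -0.50 and 0.33, that is, on both sides of 0 but within 2-fold. FAM20A, which encodes a partner of a secretory pathway kinase, had 4 above background on both E12 arrays, between -1.75 and 0.34. Others, not above it in TC+AC, were lower by at least 2.53, 1.62 and 0.035. FAM102A had 5 above background on both arrays, between -0.69 and 1.41, and 2 not above it in TC+AC that were lower by at least 2.01 and 1.03. ASPH, an aspartate hydroxylase gene with several isoforms, had 5 such probe sets, between -0.84 and -0.11, and 2 not above background in TC that were higher by at least 0.61 and 0.38. The widest ranges over probe sets above background on both arrays included EMILIN3, with 1.81 and -1.02, and MIA3, RGS3 and SLC7A3, whose probe sets also lay on both sides of 0. Which transcripts these probe sets report was not analysed here.

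The E14 pair shares no array with the E12 pair, but both were normalized together. At E14, 2804 of the 7805 genes (35.9%) were at least 2-fold apart, with 1588 (20.3%) higher and 1216 (15.6%) lower in TC+AC. Of the 348 genes at least 2-fold higher at E12, 194 (55.7%) were at least 2-fold higher at E14 and 18 at least 2-fold lower. Of the 256 lower at E12, 109 (42.6%) were at least 2-fold lower at E14 and 22 at least 2-fold higher. The share was higher for larger differences: 27 of the 38 genes at least 4-fold higher at E12 (71.1%) and 34 of the 49 at least 4-fold lower (69.4%) passed 2-fold in the same direction. For the 22 genes at least 8-fold lower it was 20 (90.9%). All these E14 counts and shares depend on the scaling. The median E14 difference over kept genes was 0.05 here, -1.09 as deposited and -1.60 with scaling on hybridization controls. The TC+AC E14 array also stood apart in its beta-actin and EF1A control ratios. How far the E14 differences reflect the tissues was not tested.

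The share at E14 was also counted by probe set agreement, with no test. Where several probe sets were above background and all were at least 2-fold higher at E12, 26 of 38 genes (68.4%) were at least 2-fold higher at E14, against 43 of 97 (44.3%) where they were not all so. For lower genes the shares were 16 of 33 (48.5%) and 31 of 85 (36.5%). This sorting uses floored values, so not every probe set counted as 2-fold apart was shown to be so against background. CDON counts among the higher genes, though a probe set of it was bounded at 0.30. PTCH1 counts among the lower genes, though a probe set of it was bounded at -0.063. Genes with 1 probe set above background lay between, at 125 of 213 (58.7%) for higher and 62 of 138 (44.9%) for lower genes. Of the 15 highest genes, 14 were at least 2-fold higher at E14, FAM180A being the exception with 1.17-fold. Of the 15 lowest, 13 were at least 2-fold lower at E14, the exceptions being DMP1 and CPZ.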

How the data were processed

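Total RNA of 4 pooled chicken tibia dissections was measured on Affymetrix arrays, 1 array for each tissue and stage. The authors deposited linear intensities for 38535 probe sets; the labels do not state the summary method, background correction or scaling behind them. With Python 3.11.15, numpy 2.4.6, pandas 2.3.3 and matplotlib 3.10.9, 96 control probe sets were left out and 38439 quantile normalized over the 4 arrays, floored at the 20th percentile (4.275) and taken to log2. Of all probe sets, 27178 carried 1 gene symbol, 177 several and 11180 none in the platform annotation; genes were named only from the first kind. The brightest probe set by mean over the 4 arrays stood for each of 13009 genes, and the 40% with the lowest mean were left out. Background was 18.85 (TC) and 19.1 (TC+AC) at E12, then 15.55 and 24.575 at E14. A fold with 1 dim side is a lower bound against background. Counts past 2-fold use the floored values.

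Named genes are the 15 highest and 15 lowest at E12; up to 4 members of each list at least 2-fold apart; fixed markers; genes with the most or most divergent probe sets; and genes opposite at E14. The 30 lists held 561 entries: 485 matched by symbol and 7 by synonym, 8 synonym matches naming another gene were not used, and 61 were not found. Lists, members and rules were chosen with earlier results of these data known. For arrays, their number limits the precision. The steps from intensities to log2 differences were tested on simulated data with planted differences. Counts past 2-fold, background bounds and probe set agreement were not tested in this way. No test between tissues was possible with 1 array each.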

Additional observations from a re-analysis of the deposited data

Results flagged for a closer look

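Of the 348 kept genes at least 2-fold higher in TC+AC at E12, 18 were at least 2-fold lower at E14. Of the 256 lower at E12, 22 were at least 2-fold higher at E14. The 5 highest and 5 lowest at E12 of such genes were named for this reason, so the number of named genes is set by that rule. In 11 named genes the E12 and E14 differences were each at least 2-fold and of opposite sign. Whether they differ between stages was not tested, since each rests on 1 array a side. Higher in TC+AC at E12 and lower at E14 were HAS2 (log2 difference 2.27 at E12 and -1.31 at E14), B3GNT7 (2.14 and -1.02), GPC6 (1.85 and -1.94), FNDC1 (1.63 and -1.14) and CSGALNACT1 (1.60 and -2.22). B3GNT7 and CSGALNACT1 encode glycosyltransferases of keratan sulfate and chondroitin sulfate, and GPC6 a cell-surface heparan sulfate proteoglycan. Their TC intensities were higher at E14 than at E12: B3GNT7 stood at 27.1 and 118, GPC6 at 19.4 and 90.6, and CSGALNACT1 at 46.0 and 554. Lower at E12 and higher at E14 were EXOSC6 (-2.05 and 1.34), FAM20A (-1.75 and 1.03), AADAC (-1.74 and 1.04), OGFRL1 (-1.73 and 1.15), BGLAP (-1.66 and 1.21) and AXIN2 (-1.11 and 2.09). In TC+AC, OGFRL1 at E12 and GPC6 at E14 were not above background, which bounds those differences at -1.66 and -1.88. The GPC6 value in TC at E12 lay close to background. Other probe sets did not bear out all E12 values: AADAC had another at -0.05 and CSGALNACT1 another at 0.20, while FNDC1 had another at 0.98. At E14 the other probe sets of CSGALNACT1 and FNDC1 gave -2.02 and -0.27. FAM20A probe sets above background in both tissues at E14 gave 0.10 to 1.13. The other AADAC probe set was at 32.7 in TC and not above background in TC+AC at E14, and that of AXIN2 was above it in neither tissue.

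Probe sets with no gene symbol were counted beside those with 1 symbol. Of 10496 with no symbol, 5143 were above background in TC or TC+AC at E12. With background in place of dim values, 170 of the 5143 were at least 2-fold higher in TC+AC and 135 at least 2-fold lower. On the same measure, 628 and 510 of the 16808 probe sets with 1 symbol above background were so. At least 8-fold differences were found in 7 of the 5143, all lower in TC+AC. Of the 16808 with 1 symbol, 29 passed 8-fold, 26 of them lower.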

How the results depend on the processing

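The scaling and the filter on dim genes moved the counts at E12. Values as deposited gave 612 genes at least 2-fold higher in TC+AC and 169 lower, with 79 of the higher also higher at E14. Scaling on hybridization controls gave 344 higher and 313 lower, and 33 of the higher and 275 of the lower kept their direction past 2-fold at E14. With no dim filter the counts were 1082 and 938 at E12 (439 and 281 at E14), and with the lowest 60% of genes left out 208 and 149 (65 lower at E14); these filters change the number of genes tested. With no background limit, 33.5% of genes had all probe sets in 1 direction. Other floors, other probe set rules, median centring and quantile normalization of the E12 arrays alone kept all counts within 1.5 times. Using the E12 arrays alone throughout, chosen after seeing the control ratios of the E14 arrays, gave 366 higher and 262 lower. Of 1117 values of named genes under the alternatives, 1064 stayed within 1.5-fold of the main value, 50 moved further and 3 changed sign: HOXA11 to -0.0020 as the mean of its probe sets, SLC8A3 to 0.40 and FAM20A to 0.34 without probe sets that may match several transcripts. The sign of the list medians for BMP ligands, WNT ligands, WNT inhibitors, hedgehog, TGF-beta, Notch and retinoic acid, fibrous collagens, hyaluronan and immediate early genes turned under at least 1 alternative; the other lists kept theirs wherever a member was left (no nerve gene was with the lowest 60% left out). The 15 highest genes stayed at least 2-fold higher in 164 of 164 values and the 15 lowest at least 2-fold lower in 162 of 165.

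No paired analysis was possible because the E12 comparison has 1 array a side and no replicate number to pair on. Depth of signal limits the low genes: 5204 genes were left out as dim, of which 2444 were above background at E12, with 77 at least 2-fold higher and 65 lower. Neither the spread between dissections nor between embryos can be had from these arrays, and the method behind the deposited intensities is unknown.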

Other observations

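Of all 5204 genes left out as dim, 77 were at least 2-fold higher in TC+AC at E12 and 65 lower, with background in place of dim values. Among the 101 list members left out as dim, 7 were at least 2-fold apart on the same measure. The 7 were named after their values were seen. Higher in TC+AC were FGF18, HOXA13 and CD3E. FGF18, a growth factor that acts on chondrocytes, was not above background in TC and at 53.0 in TC+AC, at least 2.81-fold higher, and it was at least 3.15-fold higher at E14. HOXA13, a homeobox gene of the distal limb, was at 44.8 in TC+AC and not above background in TC, at least 2.38-fold higher. Lower in TC+AC were KREMEN1, NOTUM, LOX and DLL1. KREMEN1, a receptor for the DKK inhibitors, and NOTUM, an enzyme that inactivates WNT proteins, were at 76.7 and 59.7 in TC and not above background in TC+AC, at least 4.02-fold and 3.12-fold lower. LOX, which cross-links collagen, was at 53.8 in TC and at least 2.82-fold lower. Each of these rests on 1 probe set above background, except DLL1, which had 2.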
